A study of Arabidopsis thaliana with 24 samples.

Results

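The genes described are the loci for full-length NLR immune receptors of Arabidopsis thaliana, 60 in all, of which 49 belong to the TIR class and 11 to the CC class. They were chosen by membership of the receptor family, with no filter on response. Earlier results of these data were known when they were chosen. On the ATH1 array, 13286 genes had a probe set annotated to them alone, and 45 of the loci were among them, 38 of the TIR class and 7 of the CC class, each with 1 of the 22746 non-control probe sets. A further 4 loci lie on 3 probe sets shared with other genes, and 11 loci, among them WRR4, RLM1, RMG1, TAO1, LAZ5, RFL1, SUMM2 and DAR5, had no entry in the probe annotation used here and were not analysed. The reference annotation gives no gene name for the 45 measured loci, so each is called by its locus and class.

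NLR proteins are receptors inside the plant cell that detect pathogen effectors, the proteins a pathogen delivers to weaken its host. Each joins a nucleotide-binding domain to leucine-rich repeats, and its front end, either a TIR domain or a coiled coil (CC), sorts it into a class. TIR receptors act through EDS1 with PAD4 or SAG101. Their activation can end in death of the infected cell, and raised NLR expression is a known feature of leaves in which salicylic acid signalling is active. NPR1 is a salicylic acid receptor and a coactivator of salicylic acid responsive genes.

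Aerial tissue was taken from soil-grown plants sprayed at 2 weeks of age with 100 µM DCA (3,5-dichloroanthranilic acid), 100 µM INA (2,6-dichloroisonicotinic acid) or a mock solution of 0.002% DMSO in water. DCA and INA are synthetic elicitors, small molecules that switch on plant defence. Both are aromatic carboxylic acids with chlorine on the ring, which in DCA is an aniline ring and in INA a pyridine ring. Wild-type Col-0 plants received mock, DCA or INA and were sampled at 48 h and at 6 d, and npr1-3 mutants, in the Col-0 background, received mock or DCA and were sampled at 48 h, giving 8 groups of 3 arrays from independent biological replicates. Because the samples are whole aerial parts, fewer cells of a type and less RNA per cell cannot be told apart.

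The authors' signals, linear array intensities, had medians of 115.1 to 148.4 per array. In 6 of the 8 groups, between 15.6% and 20.4% of the tested probe sets differed more than 2-fold between replicates 1 and 2, against 0.901% in Col-0 DCA at 48 h and 1.41% in Col-0 mock at 6 d. Replicate 1 was the array farthest from both others in the 4 Col-0 groups among the 6, where replicates 2 and 3 differed at 1.76% to 4.98% of the probe sets and replicate 1 differed from either at 7.87% to 20.4%. In npr1-3 with mock it was replicate 2 that lay farthest, with 18.3% and 10.4% against 7.51% between replicates 1 and 3. In npr1-3 with DCA replicates 1 and 2 differed most (18.8%) and lay about equally far from replicate 3 (6.53% and 6.84%). Results are given both with and without the replicate 1 arrays where their removal ends a call, and each array was also left out in turn. No named probe set measures NPR1, so the mutant label could not be checked against its gene. None of the 8 leaf markers and 4 vascular markers had a named probe set, while 2 of 5 root markers and 1 of 3 guard cell markers did. No comparison called a change in these 3 genes. PYK10, a glucosidase abundant in roots and hypocotyls, gave 2346 to 8896 on the 24 arrays, and EXPA7, a root hair expansin, gave dim signals of 8.89 to 79.8.

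Of the 45 measured loci, 19 passed the filter for dim signals, 18 of the TIR class and 1 of the CC class (AT5G47250). That is 42.2% of them, against 60% of all non-control probe sets. The other 26, 20 TIR and 6 CC, are called dim here, and their values come from a fit with no filter. AT4G36140 lay just outside the filter with a mean log2 signal of 6.19 and AT5G47250 just inside it with 6.24. Probe set brightness is not a measure of relative transcript amount, so the following values only place the loci on the scale of the array. The brightest probe sets belonged to AT3G44630, AT1G63880, AT2G14080, AT5G11250 and AT4G19500, all TIR class, with mean log2 signals of 8.73, 8.24, 7.91, 7.69 and 7.35. The dimmest belonged to AT4G27190 and AT3G14460 of the CC class and AT4G08450, AT4G16900 and AT3G25510 of the TIR class, with 1.41, 2.51, 1.64, 2.56 and 2.93. The spread between replicates was a median SD of 0.40 (log2) for the 19 tested loci and 1.01 for the 26 dim ones, near the 0.35 and 1.06 of all tested and all dim probe sets.

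**Figure D1:**
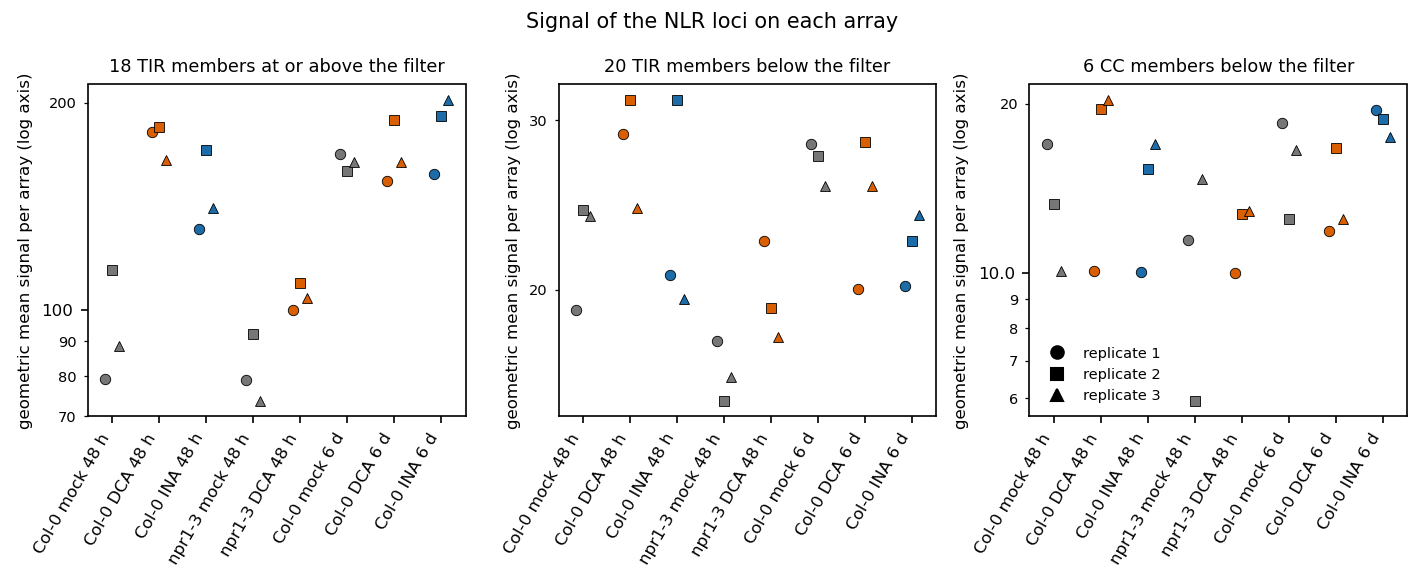
Geometric mean signal per array (log axis) of the 18 tested TIR loci, the 20 dim TIR loci and the 6 dim CC loci, by group, with 1 point for each of the 24 arrays. The tested TIR loci lay between 165 and 184 on the Col-0 DCA arrays at 48 h and between 79.4 and 114 on the matching mock arrays.

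The 18 tested TIR loci, summarised as a geometric mean of their signals on each array, stood at 79.4, 114 and 88.6 on the 3 Col-0 mock arrays at 48 h. They reached 181, 184 and 165 with DCA and 131, 171 and 141 with INA. In npr1-3 the means were 78.9, 92.2 and 73.6 with mock and 99.9, 109 and 104 with DCA, so the DCA arrays of the mutant lay above its own mock arrays and below every DCA array of the wild type. At 6 d the mock arrays alone gave 168, 159 and 164, close to DCA (154, 189 and 164) and INA (158, 191 and 202). The dim TIR loci lay between 15.3 and 31.5 over all 24 arrays and the dim CC loci between 5.93 and 20.4. These means are a description of the arrays and carry no test.

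Which receptor genes changed 48 h after DCA in wild-type plants was asked first. DCA raised 5 of the 19 tested loci, AT5G58120, AT1G69550, AT5G36930, AT5G22690 and AT1G63880, all of the TIR class, by 2.35-fold to 11.3-fold (limma with Benjamini-Hochberg adjustment over 13648 probe sets, adjusted p under 0.05). None was lower. Over all tested probe sets 1.98% were called higher and 0.432% lower. At an unadjusted p under 0.05, 8 loci were higher and 0 lower, against 8.15% and 7.17% of all tested probe sets. The log2 change was positive for 18 of the 19, with a median of 0.62, beside 51.2% positive and a median of 0.01 over all tested probe sets. Since loci high in a single group could pass the filter through that group, the same counts over the 45 measured loci are 32 positive with a median of 0.54, against 49.4% positive and a median of −0.01 over the 22746 probe sets.

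AT5G58120 changed most. Its signal was 22.3, 55.9 and 36.6 on the mock arrays and 416, 389 and 410 on the DCA arrays (38.3 ± 16.8 and 405 ± 13.9, SD, n = 3). The groups do not overlap, and the DCA arrays lay close together, far above the highest mock array. The log2 change was 3.50 ± 0.78 (SE), 11.3-fold, with an adjusted p of 0.0189.

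AT5G36930 gave 45.7, 82.5 and 35.2 with mock and 164.6, 139.2 and 148.5 with DCA, 2.95-fold higher (log2 change 1.56 ± 0.35, adjusted p 0.0194). AT5G22690 gave 75.1, 108 and 89.2 with mock and 223.5, 247.5 and 209 with DCA, 2.52-fold higher (1.33 ± 0.30, adjusted p 0.0207). For both loci the lowest DCA array lay above the highest mock array, and replicate 2 was the highest of the mock arrays.

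AT1G69550 gave 58.6, 123 and 73.8 with mock and 325.5, 277 and 187 with DCA, 3.17-fold higher (1.66 ± 0.44, adjusted p 0.0462). AT1G63880 gave 147, 245.5 and 155 with mock and 413, 402 and 436 with DCA, 2.35-fold higher (1.23 ± 0.32, adjusted p 0.0451). Neither set of arrays overlaps, and both adjusted p-values lie close to the threshold.

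AT3G44630 missed the threshold although its fold was larger than that of 4 of the 5 called loci. Its mock arrays read 96.3, 495 and 239 and its DCA arrays 890.4, 722 and 831, a 3.61-fold difference with an adjusted p of 0.0556. The mock arrays were spread widely, with replicate 1 the lowest, yet all lay below the DCA arrays. Separation of this kind, every DCA array above every mock array, was seen for 11 of the 19 loci and the reverse for 0, against 15.3% and 12.8% of all tested probe sets. AT4G12010 had the smallest change, −0.04.

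The 5 calls rested on the full set of arrays. All 5 were lost without the replicate 1 arrays, at adjusted p of 0.0971 to 0.251, and in 5 of the 6 fits that left out 1 array of the comparison. Only the fit without mock replicate 2 kept them, and it called AT3G44630 as well (adjusted p 0.00951). That fit called 715 probe sets in all, beside 329 with every array. All 5 changes stayed positive throughout, from 1.098 to 3.82 (log2).

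**Figure D2:**
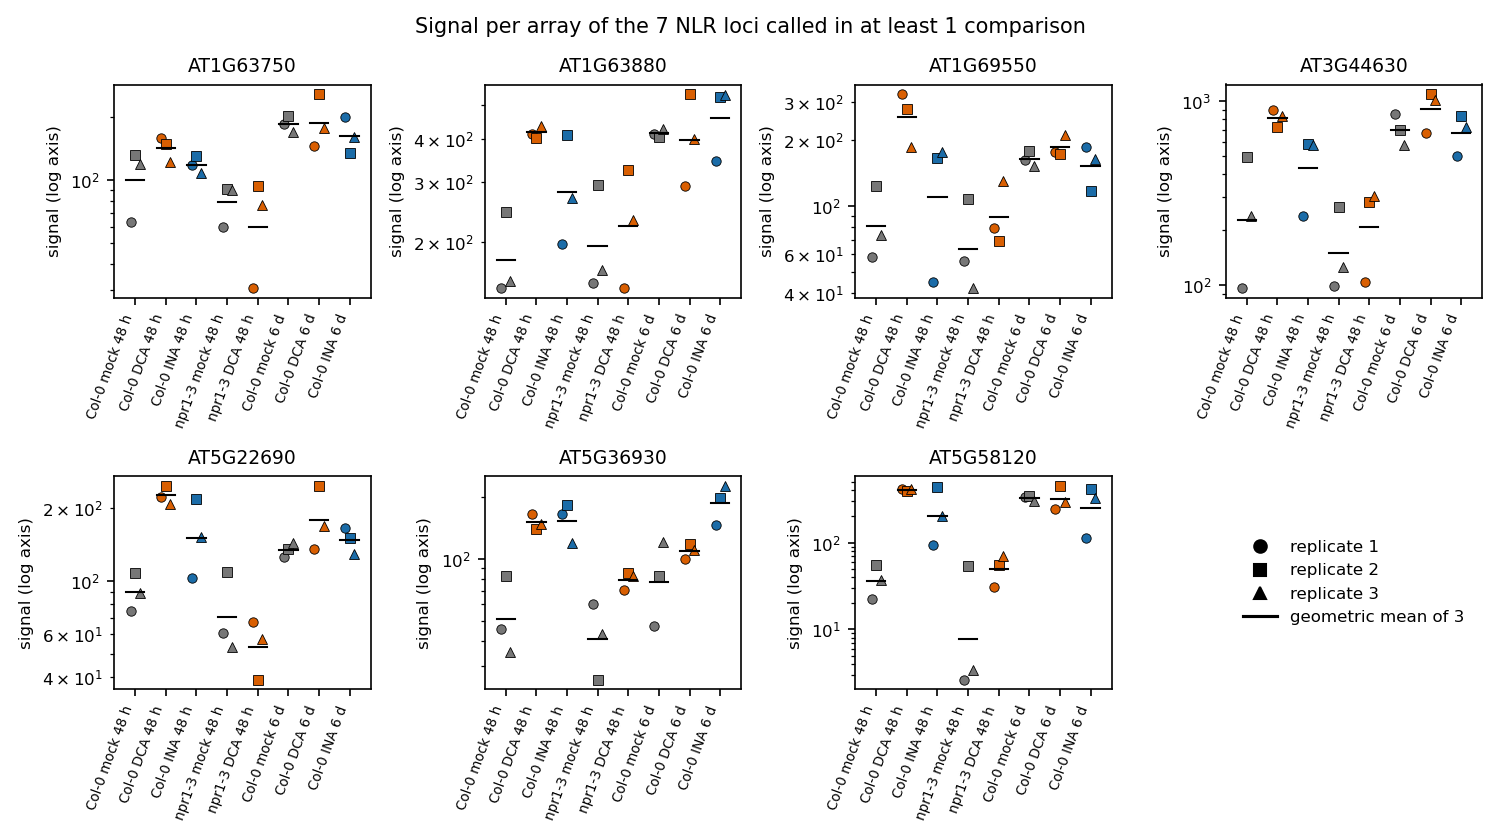
Signal on each of the 24 arrays (points, log axis) with the geometric mean of each group (bars) for the 7 loci called in at least 1 comparison, 1 panel per locus. For AT5G58120 the 3 Col-0 DCA arrays at 48 h read 389 to 416 and the 3 npr1-3 DCA arrays 30.9 to 69.8.

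INA was compared with the same mock arrays at 48 h, so the DCA and INA comparisons share their controls. INA raised 1 of the 19 tested loci, AT5G36930, and lowered none. Over all tested probe sets 2.37% were called higher and 0.278% lower. At an unadjusted p under 0.05, 5 loci were higher and 0 lower, against 7.52% and 4.02% of all tested probe sets. AT5G36930 read 166, 183 and 120 with INA (156 ± 32.7, SD, n = 3) against 45.7, 82.5 and 35.2 with mock, 3.01-fold higher (log2 change 1.59 ± 0.35, adjusted p 0.0122). The 2 groups do not overlap. Replicate numbers paired the samples of this comparison. With the replicate as a block 2 loci were called, AT5G36930 (adjusted p 0.00785) and AT5G58120 (adjusted p 0.0232). The block was shared by all groups at 48 h, Col-0 DCA and npr1-3 included, so it is not a paired test of INA against mock alone. The fit with the block called 606 of the 13648 probe sets in all, beside 362 without it.

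Without the block AT5G58120 was not called. Its INA arrays read 93.2, 440 and 204, a 5.68-fold difference from mock with an adjusted p of 0.111. All 3 lay above the mock arrays, and replicate 2 reached the level of the DCA arrays while replicate 1 did not come near it. The other loci whose INA arrays all lay above their mock arrays were AT5G38850 (0.72, adjusted p 0.131), AT5G40060 (0.68, 0.531), AT1G63730 (0.59, 0.463) and AT4G36150 (0.48, 0.551), which makes 6 of 19, with 0 in the reverse order, against 10.1% and 6.15% of all tested probe sets. The change was positive for 19 of 19 tested loci with a median of 0.48, beside 50.9% and 0.01 over all tested probe sets. Over the 45 measured loci it was positive for 35 with a median of 0.41, beside 47.8% and −0.02 over the 22746. The call of AT5G36930 was lost without INA replicate 1 or 2, without mock replicate 3 and without all replicate 1 arrays, with adjusted p up to 0.148 over the alternatives tried.

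**Figure D3:**
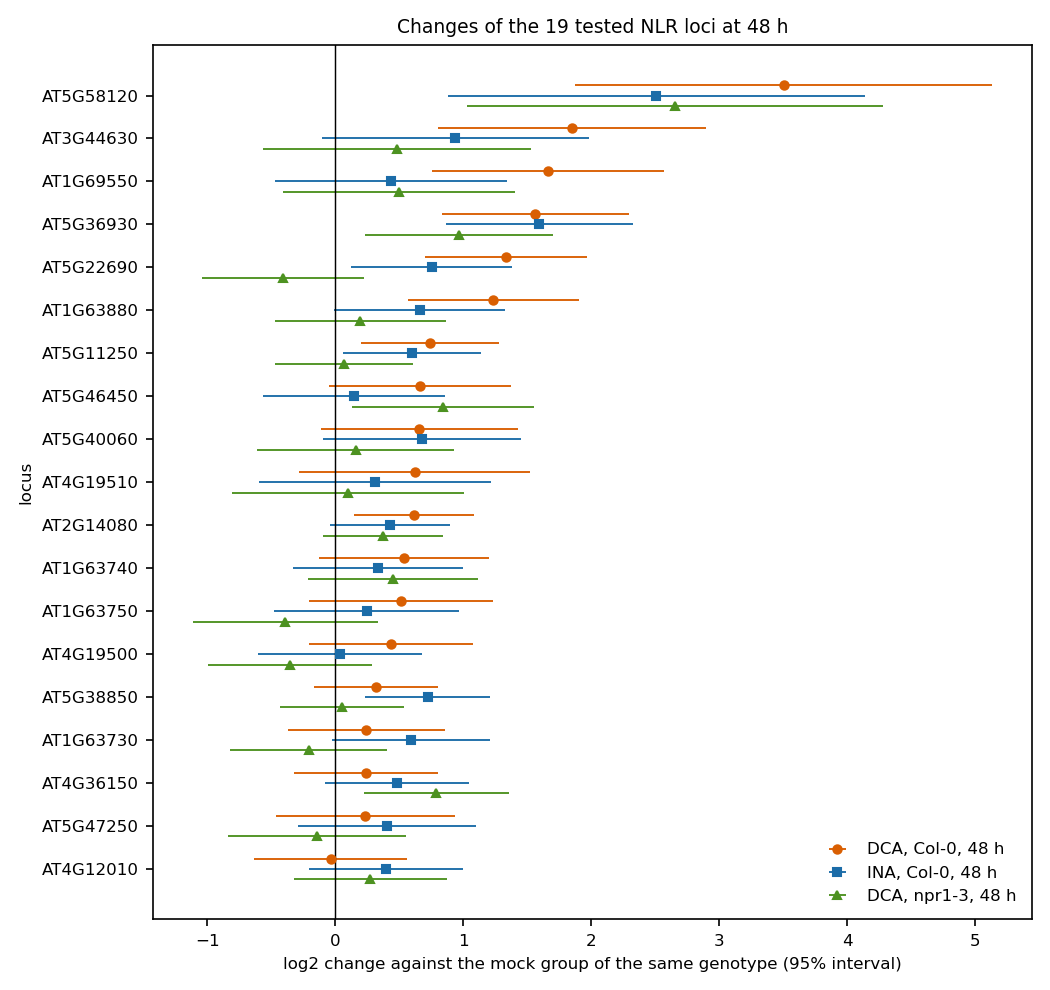
log2 change against the mock group of the same genotype at 48 h, with 95% intervals, for the 19 tested loci after DCA in Col-0, INA in Col-0 and DCA in npr1-3. AT5G58120 and AT5G36930 have the highest INA points, at 2.51 and 1.59.

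DCA and INA were then set directly against each other at 48 h, at the matched dose of 100 µM. None of the 19 loci was called, nor was any of the 13648 probe sets (0%). At an unadjusted p under 0.05, 1 locus was higher with DCA and 0 with INA, against 5.5% and 6.4% of all tested probe sets. That locus was AT1G69550, at 325.5, 277 and 187 with DCA against 44.9, 165 and 176 with INA, a log2 difference of 1.23 with a 95% interval of 0.32 to 2.14 and an adjusted p of 0.374. For AT5G36930 the difference was −0.03 with an interval of −0.76 to 0.70, and for AT5G58120 it was 0.99 with an interval of −0.63 to 2.62. These intervals still allow differences between the compounds of about the size of many of the changes against mock. The median difference was 0.20, and DCA arrays lay wholly above INA arrays for 3 loci and wholly below for 1, against 11.2% and 12% of all tested probe sets.

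At 6 d after spraying, no tested locus differed between DCA and mock by limma at an adjusted p under 0.05 (0% of all tested probe sets), nor at an unadjusted p under 0.05 (1.88% higher and 1.37% lower). AT5G58120 read 334, 343 and 304 with mock and 244, 451 and 294.5 with DCA, a log2 change of −0.03 (95% interval −1.66 to 1.59). AT5G36930 had the largest change, 0.49 (adjusted p 0.93), with DCA arrays at 99.4, 117.5 and 110.2 inside the range of mock arrays at 46.9, 82.3 and 120.4. Changes over the 19 loci ran from −0.46 to 0.49 with a median of 0.05, and no locus had DCA arrays wholly above or below mock, against 7.32% and 7.96% of all tested probe sets.

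INA at 6 d also called 0 of the 19 loci, against 1.55% of all tested probe sets called higher and 0.278% lower. At an unadjusted p under 0.05 it gave 3 higher and 0 lower, against 7.61% and 6.53% of all tested probe sets. For 3 loci the INA arrays all lay above the mock arrays and for 0 all below, against 12.8% and 13.2%. AT5G36930 read 147, 199 and 227 with INA against 46.9, 82.3 and 120.4 with mock, 2.43-fold (adjusted p 0.0696, or 0.0344 without mock replicate 3). AT4G12010 read 148, 189 and 171 against 93.7, 77.0 and 109.5, 1.82-fold (adjusted p 0.147). AT4G36150 read 209.9, 268 and 257 against 159, 132 and 122.5, 1.78-fold (adjusted p 0.134). In the direct comparison of DCA with INA at 6 d, 0 loci were called (0.00733% of all tested probe sets higher with DCA, 0.205% lower). At an unadjusted p under 0.05, 0 were higher and 4 lower (1.63% and 4.22%). DCA arrays lay wholly below INA arrays for 4 loci, AT5G36930 (−0.79, adjusted p 0.786), AT4G36150 (−0.70), AT4G12010 (−0.67) and AT5G38850 (−0.27), and wholly above for 0, against 6.73% and 3.41% of all tested probe sets.

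The mock plants themselves differed between the harvests, which bears on any comparison across time. From 48 h to 6 d the change was positive for 19 of the 19 tested loci with a median of 0.60, beside 57.9% and 0.07 over all tested probe sets, and for 37 of the 45 measured loci with a median of 0.54, beside 0.08. No locus was called (0.183% of all tested probe sets higher, 0.0293% lower), while 10 were higher and 0 lower at an unadjusted p under 0.05 (9.71% and 5.54%). For 10 loci every 6 d array lay above every 48 h array and for 0 below, against 18.2% and 9.77% of all tested probe sets. AT5G58120 went from 22.3, 55.9 and 36.6 to 334, 343 and 304, a log2 change of 3.19 (adjusted p 0.0772), which left the untreated level at 6 d close to that with DCA at 48 h. AT3G44630 changed by 1.63 (adjusted p 0.145) and AT1G63880 by 1.22 (adjusted p 0.0856). The time points differ in plant age as well as in time since spraying. PYK10 read 4400 to 5144 in mock plants at 48 h and 2678 to 3440 at 6 d (log2 change −0.66, adjusted p 0.357), and the part of such tissue differences in the result was not tested.

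The difference of the DCA response between the times was tested as an interaction. None of the 19 loci was called (0% of all tested probe sets higher, 0.022% lower), while 6 were lower and 0 higher at an unadjusted p under 0.05 (6.13% and 6.14%). The difference was negative for 18 loci with a median of −0.70, beside a median of −0.07 and 45.4% positive over all tested probe sets. For AT5G58120 it was −3.54 (adjusted p 0.292). For INA the interaction called 0 loci (0% of all tested probe sets), with 1 lower and 0 higher at an unadjusted p under 0.05 (1.49% and 1.05%) and a median of −0.40. Over all tested probe sets that median was −0.03. Both interactions contain the mock arrays whose own change was given above.

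The npr1-3 mutant was compared next, to ask how far the DCA response of the receptor genes depended on NPR1. After DCA at 48 h, 5 of the 19 tested loci were lower in npr1-3 than in Col-0, and 0 were higher. They were AT5G58120, AT5G22690, AT3G44630, AT1G69550 and AT1G63750, all TIR class, at 2.37-fold to 8.22-fold. Over all tested probe sets 6.33% were called lower and 6.36% higher. At an unadjusted p under 0.05, 9 loci were lower and 0 higher, against 12.7% and 15.9%. The difference was negative for 16 of the 19 with a median of −0.55, where all tested probe sets had a median of 0.06, and negative for 33 of the 45 measured loci with a median of −0.45, where the 22746 probe sets had 0.05. AT5G58120, AT5G22690 and AT1G69550 were called both here and for DCA against mock in Col-0, 2 comparisons that share the Col-0 DCA arrays.

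AT5G22690 had the smallest p-value of these loci. Its npr1-3 DCA arrays read 67.3, 39.0 and 57.5 (54.6 ± 14.4, SD, n = 3) against 223.5, 247.5 and 209 in Col-0 (227 ± 19.5, n = 3), 4.25-fold lower (log2 difference −2.09, adjusted p 0.000398). The mutant arrays lay even below the Col-0 mock arrays, which read 75.1 to 108. This call held in each of the 6 fits that left out 1 array (adjusted p 0.00124 to 0.00401) and in all 7 other alternatives in which the locus was tested (0.000272 to 0.00195).

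AT5G58120 read 30.9, 55.4 and 69.8 in npr1-3 with DCA against 416, 389 and 410 in Col-0, 8.22-fold lower (−3.04, adjusted p 0.0154). With mock the genotypes were −2.19 apart at this locus, and within npr1-3 DCA changed it by 2.65. Neither was called, and the arrays overlapped in both cases. Both values rest on npr1-3 mock arrays that were spread widely, down to signals near the floor. AT3G44630 read 104.5, 282 and 304 against 890.4, 722 and 831, 3.91-fold lower (−1.97, adjusted p 0.0149). For both loci all mutant arrays lay far below the wild-type arrays. AT5G58120 lost its call without Col-0 DCA replicate 1 or 2 or npr1-3 DCA replicate 1 (adjusted p 0.0523 to 0.0641), and AT3G44630 without replicate 1 of either group (0.0593 and 0.087).

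AT1G69550 read 79.15, 68.7 and 130.1 against 325.5, 277 and 187, 2.88-fold lower (−1.53, adjusted p 0.0265), and AT1G63750 read 30.55, 93.4 and 75.9 against 158.5, 149 and 122, 2.37-fold lower (−1.24, adjusted p 0.0234). The arrays do not overlap for either locus. AT1G69550 lost its call in 4 and AT1G63750 in 3 of the 6 fits without 1 array, and without npr1-3 DCA replicate 1 the difference of AT1G63750 was −0.76 (adjusted p 0.137). Without all replicate 1 arrays 3 loci were called, AT3G44630, AT5G22690 and AT5G58120. The 9 alternative fits that include this one, single arrays left out apart, called 1394 to 3264 probe sets in all. With every array and the main settings it was 1732. Below the threshold, AT1G63880 differed by −0.90 (adjusted p 0.069) and AT5G36930 by −0.92 (adjusted p 0.0872). Mutant arrays lay wholly below wild-type arrays for 9 of the 19 loci and wholly above for 1, AT5G38850 (0.46), against 19% and 21.2% of all tested probe sets. PYK10 read 5528 to 7080 on the npr1-3 DCA arrays and 4395 to 4447 on those of Col-0 (0.45, adjusted p 0.392), and its part in the result was not tested.

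Within npr1-3, DCA against mock called 0 of the 19 loci (0.315% of all tested probe sets higher, 0.00733% lower), with 4 higher and 0 lower at an unadjusted p under 0.05 (5.79% and 2.09%). The median change was 0.19, with 14 of 19 positive, beside 0.09 and 60.8% over all tested probe sets. AT5G36930 read 60.05, 25.8 and 43.1 with mock and 70.6, 85.7 and 82.2 with DCA, a change of 0.97 (adjusted p 0.474). AT5G46450 (0.84, adjusted p 0.538), AT4G36150 (0.79, 0.414) and AT2G14080 (0.37, 0.732) also had all DCA arrays above all mock arrays, which makes 4 of 19, with 0 in the reverse order, against 6.94% and 3.95% of all tested probe sets. AT5G58120 read 2.64, 53.5 and 3.40 with mock and 30.9, 55.4 and 69.8 with DCA, so that mock replicate 2 lay within the DCA range (2.65, adjusted p 0.291). Without that mock array AT5G58120 was called, here as higher with DCA and in the comparison of the genotypes with mock as lower in npr1-3. AT5G22690 changed by −0.41, AT1G63880 by 0.19, AT3G44630 by 0.48 and AT1G69550 by 0.49, all with overlapping arrays.

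With mock treatment, npr1-3 and Col-0 differed at 0 of the 19 loci (0.00733% of all tested probe sets higher, 0.0733% lower), with 2 higher and 1 lower at an unadjusted p under 0.05 (4.4% and 6.46%). The widest gap was that of AT5G58120 (−2.19, adjusted p 0.319). AT5G38850 was the only locus with mutant arrays wholly above wild-type arrays, at 107.9, 87.7 and 124.7 against 70.4, 45.5 and 82.1 (0.72, adjusted p 0.261), and none had them wholly below, against 4.56% and 6.41% of all tested probe sets. The difference of the DCA response between genotypes, tested as an interaction, called 0 loci (0% of all tested probe sets higher, 0.00733% lower). It was negative for 16 of 19 with a median of −0.52, and 2 loci were lower and 0 higher at an unadjusted p under 0.05 (1.85% and 2.59%). Over all tested probe sets the difference was positive for 56.4%, with a median of 0.07. AT5G22690 had the lowest unadjusted p, 0.000589, with a difference of −1.74 and an adjusted p of 0.877. A difference between genotypes in the response of single receptor genes was thus not detected at this number of arrays, although their DCA levels differed.

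**Figure D4:**
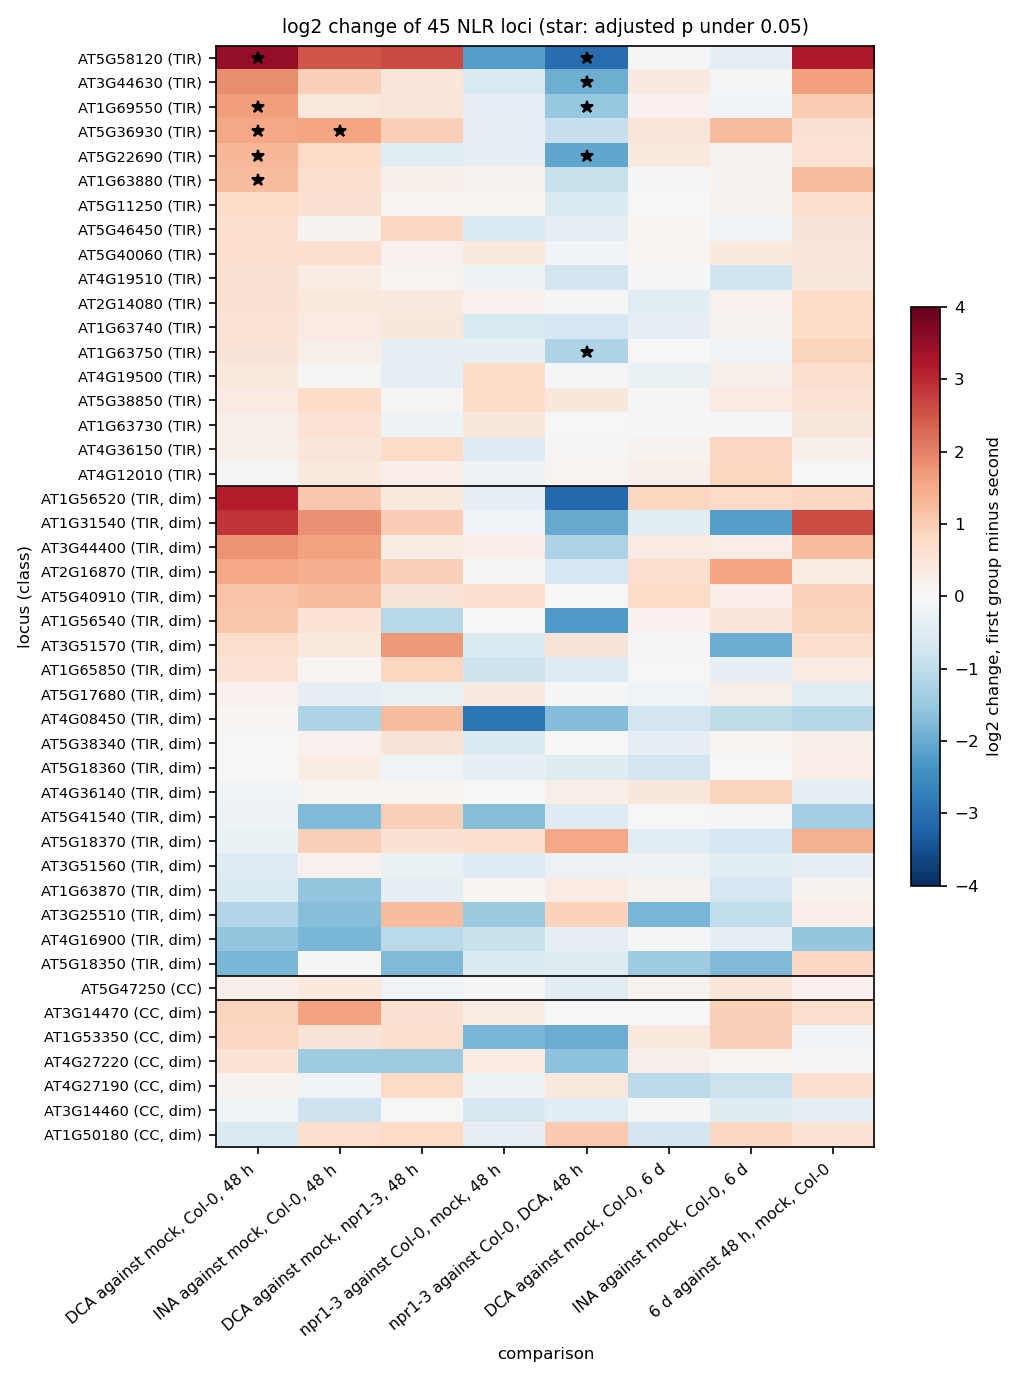
log2 change of the 45 measured loci (vertical axis, with class) in 8 comparisons (horizontal axis) on a colour scale, with a star where the adjusted p was under 0.05. The stars lie in 3 columns: 5 for DCA against mock at 48 h, 1 for INA against mock at 48 h and 5 for npr1-3 against Col-0 after DCA.

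Many receptor genes lie beside others of the family, and 10 groups of the 60 loci have members with no more than 2 genes between them. In the group AT1G63730, AT1G63740 and AT1G63750, all TIR class and all tested, only AT1G63750 was called, in npr1-3 against Col-0 after DCA. There its neighbours differed by −0.01 (adjusted p 0.985) for AT1G63730 and by −0.70 (adjusted p 0.151) for AT1G63740. After DCA in Col-0 the 3 neighbours changed by 0.24, 0.54 and 0.51, with overlapping arrays. The neighbours AT4G19500 and AT4G19510, both tested, changed by 0.44 and 0.62 after DCA and differed by −0.07 and −0.72 between npr1-3 and Col-0 after DCA, none of them called. AT1G63880, called for DCA in Col-0 at 1.23, has the measured neighbour AT1G63870, a dim TIR locus. AT1G63870 read 77.6, 65.2 and 16.1 with mock, 7.68, 68.0 and 45.4 with DCA (−0.59, adjusted p 0.868) and 13.5, 16.2 and 13.7 with INA (−1.59, adjusted p 0.657), overlapping with mock in both cases. Its changes are thus of the opposite sign to those of AT1G63880, and its arrays within the mock and DCA groups are spread widely. AT4G36140, the dim neighbour of AT4G36150, changed by −0.15 after DCA and 0.10 after INA at 48 h, and by 0.90 after INA at 6 d (adjusted p 0.272), where AT4G36150 changed by 0.83. Whether neighbours differ from each other was not tested.

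The CC class gave no call in any of the 13 comparisons and interactions at its loci with a probe set of their own. Its only tested locus, AT5G47250, read 57.2, 65.7 and 76.0 with mock, 60.2, 92.8 and 83.4 with DCA and 66.1, 116 and 87.0 with INA in Col-0 at 48 h, overlapping in each case (0.23 and 0.41, adjusted p 0.782 and 0.775). In npr1-3 it read 54.2, 102 and 47.3 with mock and 64.8, 66.4 and 45.01 with DCA. At 6 d it read 92.2, 64.3 and 68.55 with mock, 112, 79.2 and 62.0 with DCA and 139, 72.1 and 114 with INA. No treatment separated from its mock on every array. The probe set that AT1G61180, also of the CC class, shares with other genes is left out of these counts. It was called higher with DCA in Col-0 at 48 h (1.04, adjusted p 0.0115) and lower in npr1-3 than in Col-0 after DCA (−0.76, adjusted p 0.0257). Which gene gave that signal cannot be told apart.

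The 6 dim CC loci offer little. AT4G27190 stayed between 1.48 and 7.03 on all 24 arrays and AT3G14460 between 2.05 and 22.3, so changes in them were not detectable at this signal. AT3G14470 was the clearest, at 39.5, 43.9 and 15.2 with mock, 109, 82.8 and 81.6 with INA (1.60, adjusted p 0.105) and 47.6, 57.3 and 61.4 with DCA (0.89, adjusted p 0.468). All its INA and DCA arrays lay above its mock arrays. AT1G53350 changed by 0.82 after DCA (adjusted p 0.761), and AT4G27220 by −1.41 after INA (adjusted p 0.769). AT1G50180 ranged from 1.60 to 54.8 over the arrays. After DCA in Col-0 at 48 h, 5 of the 7 measured CC loci and 27 of the 38 measured TIR loci had a positive change, with medians of 0.23 and 0.54, and after INA 4 of 7 and 31 of 38. The classes were not tested against each other.

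None of the 20 dim TIR loci was called in any comparison. After DCA in Col-0 at 48 h they split evenly, 10 positive and 10 negative, with a median of 0.04. DCA arrays lay wholly above mock for 5 of them and wholly below for 1. Over all 22746 non-control probe sets, dim and tested together, the shares were 11.4% and 10.3%. The tested probe sets alone had 15.3% and 12.8%, so the shares of the dim ones alone are lower than those of all. AT1G56520 read 8.23, 7.86 and 13.0 with mock and 107, 90.12 and 61.1 with DCA in Col-0 (3.15, adjusted p 0.134), and 9.48, 8.80 and 10.4 with DCA in npr1-3 (difference −3.14 from Col-0, adjusted p 0.0541). Its wild-type DCA arrays stood above all others of these groups. Its neighbour AT1G56540 read 10.17, 54.25 and 42.15 with mock and 65.2, 61.7 and 59.3 with DCA, a change of 1.12 (adjusted p 0.574), and was −2.25 apart between the genotypes after DCA (adjusted p 0.0599).

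AT3G44400 read 26.5, 35.6 and 21.2 with mock, 92.8, 105 and 86.1 with DCA (1.80, adjusted p 0.0522) and 77.9, 110 and 64.6 with INA (1.60, adjusted p 0.0961). Both elicitors separated from mock on every array. AT1G31540 read 3.17, 3.87 and 25.6 with mock and 41.8, 63.3 and 46.1 with DCA (2.87, adjusted p 0.127), while at 6 d its INA arrays lay wholly below mock (−2.20, adjusted p 0.298). AT5G40910, the last of the 5, changed by 1.15 after DCA (adjusted p 0.247).

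AT5G18350 was the dim TIR locus with DCA arrays wholly below mock, at 5.14, 5.73 and 8.14 against 9.12, 35.7 and 32.7 (−1.82, adjusted p 0.394). It was also wholly below mock after INA at 6 d, at 9.195, 9.56 and 17.6 against 39.2, 33.5 and 45.5 (−1.76, adjusted p 0.43), and after DCA in npr1-3, at 7.002, 3.02 and 4.16 against 40.2, 10.9 and 7.69 (−1.75, adjusted p 0.704). With INA at 48 h its arrays overlapped with mock, since replicate 2 read 80.4 and the others 10.2 and 10.9. Its neighbours AT5G18360 and AT5G18370 changed by −0.02 and −0.27 after DCA at 48 h, with overlapping arrays.

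In the fit with no filter, which called 3 of the 45 loci for DCA at 48 h against 1.06% of the 22746 probe sets called higher, DCA arrays lay wholly above mock for 18 of the 45 loci and wholly below for 1, against 11.4% and 10.3% of the 22746.

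Of 25 genes listed as partners of NLR signalling, 2 had a named probe set. SAG101, a lipase-like partner of EDS1 in TIR receptor signalling, read 130, 92.6 and 115 with mock, 324, 216 and 171 with DCA and 228, 266 and 244 with INA in Col-0 at 48 h. It rose with DCA (1.04, adjusted p 0.0277) and INA (1.14, adjusted p 0.0109), and was lower in npr1-3 than in Col-0 after DCA, at 92.2, 131 and 108 (−1.07, adjusted p 0.00872). SGT1A, a co-chaperone for receptor proteins, read 479, 549 and 586 with mock and 1162, 1097 and 1121 with INA, a rise of 1.07 (adjusted p 0.0325), while DCA gave 0.72 (adjusted p 0.195). In mock plants it rose from 48 h to 6 d (1.45, adjusted p 0.026), a comparison in which no receptor locus was called. Whether the calls of SAG101 and SGT1A hold in the alternative fits was not tested.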

How the data were processed

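ATH1 arrays of 24 samples were analysed. Per the submitters' processing notes the authors processed the scans with GCOS; the deposited values are linear signal intensities, 1 per probe set, with a trimmed mean of 500.1 on each array after 2% is left out at each end. Signals below 1 were set to 1 and put on the log2 scale. After removal of 64 control probe sets, the 13648 of 22746 with a mean at or above the 40th percentile (signal 74.2) were tested with limma 3.58.1 in R 4.3.3. One model held the 8 groups (eBayes with trend, 16 residual degrees of freedom), and p-values were Benjamini-Hochberg adjusted within each of 13 comparisons and interactions. Dim loci came from the same model with no filter. The script was tested on simulated data.

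Probe sets were named through the platform annotation (13513 with 1 gene, of which 13436 matched RefSeq's gene table). Members and lists were chosen with earlier results of these data known. Loci named are those called in any comparison, the tested loci with the 5 largest positive and 3 largest negative changes without array overlap in each elicitor comparison, the 5 brightest and 5 dimmest probe sets, all CC loci, neighbours of named loci and measured signalling genes; AT1G56520, AT1G31540, AT3G44400, AT1G56540, AT5G40910, AT5G18350 with its neighbours, and other loci named for single values were chosen after their values were seen. Replicates are independent biological replicates per the labels. Replicate numbers paired the samples where every pair's deviations correlated above 0.1: INA against mock at 48 h (0.764, 0.775 and 0.289), DCA against INA at 6 d, DCA against mock in npr1-3 and npr1-3 against Col-0 with mock. Alternatives were the filter, the floor, quantile normalization, eBayes without trend, a replicate block, removal of replicate 1 or of single arrays, and a fit of only the arrays compared. The block held an offset for each replicate number within each time, shared by all groups of that time. The number of arrays limits the precision.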

Additional observations from a re-analysis of the deposited data

Results flagged for a closer look

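Probe sets shared by several genes were left out of the report's comparisons, and those of 2 receptor groups carried signal above the mock arrays. The probe set shared by AT5G41740 and AT5G41750, of which the first is among the 60, read 68.6, 79.5 and 82.9 with mock and 563, 556 and 375 with DCA in Col-0 at 48 h, a log2 change of 2.67 (limma, adjusted p 0.000695). With INA it read 259, 456 and 294 (2.09, adjusted p 0.00275). No elicitor array overlapped a mock array. After DCA it was lower in npr1-3 than in Col-0 by a log2 difference of −2.92 (adjusted p 0.000189).

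The probe set shared by AT1G61180, a CC class member, with AT1G61190, AT1G61300 and AT1G61310 read 322, 432 and 360 with mock and 763, 754 and 754 with DCA at 48 h (1.04, adjusted p 0.0115), and was −0.76 apart between npr1-3 and Col-0 after DCA (adjusted p 0.0257). The third shared probe set, of AT1G27170 and AT1G27180, changed by −0.06 after DCA and was not called. Which gene of a shared probe set gave the signal cannot be told apart.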

How the results depend on the processing

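No change of a named locus turned its sign where it was called. Counts are of the 19 tested loci, or of the 45 measured loci where no filter was used. All probe sets called are in brackets where given. For DCA against mock at 48 h, 5 loci (329) became 3 with no filter, 1 with a filter at the 50th percentile, which tests fewer loci, 3 with quantile normalization, 0 without the replicate 1 arrays (220), 3 with only the arrays compared, 7 with the replicate block (945) and 0 to 6 with 1 array left out (107 to 715). For INA at 48 h, 1 (362) became 0 with the 50th percentile filter, 2 with signals under 32 set to 32, 2 with the block (606), 0 without replicate 1 arrays, 0 with only its own arrays (167) and 0 to 1 with 1 array left out (221 to 332). For npr1-3 against Col-0 after DCA, 5 (1732) became 1 with the 50th percentile filter, 3 without replicate 1 arrays, 6 with the block (3264), 5 with only its own arrays (2650) and 1 to 5 with 1 array left out (709 to 1621). For INA at 6 d, 0 (250) became 1 with the higher floor, 2 with the block (854) and 0 to 1 with 1 array left out (120 to 228). For mock over time, 0 (29) became 1 with the higher floor, 4 with the block (960) and 2 with only its own arrays (401), with 351 probe sets but 0 loci without replicate 1 arrays and 15 with quantile normalization. For the change of the DCA response between times, 0 (3) became 1 with the block (147) and 1 with only its own arrays (36). For npr1-3 against Col-0 with mock, 0 (11) became 1 without replicate 1 arrays (1852), and 0 to 1 with 1 array left out (1 to 289). For DCA in npr1-3, 0 (44) stayed 0 except with 1 array left out (0 to 1, 9 to 76), with 26 probe sets called with no filter, 77 with the block and 165 without replicate 1 arrays. The other 5 comparisons and interactions called 0 loci throughout. Beyond INA at 48 h, the replicate block changed no call in a comparison whose numbers paired the samples; in the others the samples share only a number. The cause of these changes was not tested. The dim loci limit what can be detected, since their replicate spread was 1.01 (log2 SD).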
